A study of Drosophila melanogaster with 3 samples.

Results

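InR, chico, Akt, Tor, raptor, S6k, Tsc1, Thor, foxo and Myc, which carry or restrain growth signals from insulin and nutrients, were examined for binding of Ets97D at their promoters. These 10 genes were chosen by name out of 13968 protein-coding genes in the annotation. Ets97D, also called Delg, is an ETS-domain transcription factor, the fly relative of mammalian GABP-alpha, with a known role in nutrient-dependent growth. The samples were whole Drosophila melanogaster embryos, 0 to 24 h old and of both sexes, from the strain Delg-GFP, a transgenic line whose Ets97D protein carries eGFP at its C terminus. DNA bound by the fusion protein was pulled down through its GFP tag and read by ChIP-seq. The samples form 1 group of 3 biological replicates, with no second condition, and the labels do not say whether the line also has untagged Ets97D. Because whole embryos mix all tissues, strong binding in few cells and weak binding in many cannot be told apart.

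The insulin receptor InR signals through the adaptor chico and phosphoinositide 3-kinase to the kinase Akt, which restrains the transcription factor foxo and the Tsc complex. The Tsc complex in turn restrains TOR, a kinase that works in a complex with raptor, acts on S6k and Thor (the fly 4E-BP) and couples nutrients to protein synthesis. Myc is a transcription factor that drives growth, largely through genes of ribosome production. In the fly, Ets97D has been studied as a regulator of mitochondrial genes and of growth driven by cyclin D and Cdk4.

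A region was given to a gene when its summit lay within 500 bp of any transcription start site (TSS) of the gene's protein-coding transcripts. Positions are those of dm6, in bp from the TSS, negative being upstream. The regions come from the authors' pooled list of 27625, from the lists of replicates 1, 2 and 3 with 24391, 28843 and 29122 regions, and from the optimal set. This set was derived by the authors with a test of reproducibility between replicates (IDR) and holds 5595 peaks. They are the 5595 pooled regions of highest signal, ending at a pooled signal of 89.1. Membership therefore does not by itself show that each replicate supports a peak. The signal is the authors' own value per region, on a scale that is not stated, so the values of a replicate are divided by the median over its own 5595 strongest regions (its strongest set) and called relative signals. No read counts were used, and the depth is unknown.

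Of the 10 genes, 6 had an optimal promoter peak: InR, chico, Akt, Tor, raptor and S6k. Tsc1, Thor, foxo and Myc had none. Among all protein-coding genes the share with one was 36.5%. In the pooled list, 9 of the 10 had a region at a TSS, all but Myc, against 59.0% of all genes. In the full lists of replicates 1, 2 and 3 the counts were 10, 9 and 9, against 55.2%, 58.4% and 58.7% of all genes. The pooled and full replicate lists hold background as well as peaks, so a region in them does not by itself show binding. When each replicate was limited to its 5595 strongest regions, 6, 5 and 7 of the 10 genes had one, against 35.6%, 36.6% and 34.7%. Among genes with any pooled region at a TSS, 6 of 9 members and 61.9% of all genes were in the optimal set. These shares describe a list chosen by name and were not tested.

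Sequence around or next to the summit is shown for the 6 genes with an optimal peak, and for Thor, which fell just short of the set, the stretch before its first TSS, which does not reach the summit in the 5′ UTR. Each is on the strand of the gene, 5′ to 3′, from the Release 6 genome (dm6 coordinates), and holds no base of an annotated exon; those of InR, chico, Akt, raptor, S6k and Thor lie just upstream of the TSS and that of Tor around its summit. Capitals mark a match to one of the 10 words searched on both strands: the ETS word CCGGAAG and its parts, the shorter CCGGAA and the shorter CGGAAG; the DREF element TATCGATA and the shorter CGATA within it; GGTCACAC, a word common in housekeeping promoters; the E-box CACGTG; the forkhead word TTGTTTAC; the TATA word TATAAA; and the GAGA-factor word GAGAGAG.
InR (minus strand, chr3R:21619331-21619430): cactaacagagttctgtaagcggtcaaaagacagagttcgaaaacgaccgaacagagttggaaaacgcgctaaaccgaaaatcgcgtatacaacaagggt
chico (minus strand, chr2L:10247079-10247178): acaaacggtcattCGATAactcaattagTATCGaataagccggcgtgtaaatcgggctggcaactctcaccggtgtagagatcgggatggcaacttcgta
Akt (plus strand, chr3R:16099091-16099190): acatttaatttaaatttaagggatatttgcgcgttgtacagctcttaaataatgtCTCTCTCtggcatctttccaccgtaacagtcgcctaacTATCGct
Tor (plus strand, chr2L:13004141-13004240): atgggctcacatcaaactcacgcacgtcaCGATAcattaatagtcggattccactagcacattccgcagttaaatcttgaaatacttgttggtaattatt
raptor (minus strand, chrX:6090204-6090303): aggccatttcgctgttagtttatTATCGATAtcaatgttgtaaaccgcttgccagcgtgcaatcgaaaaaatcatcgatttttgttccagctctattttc
S6k (minus strand, chr3L:5810932-5810972): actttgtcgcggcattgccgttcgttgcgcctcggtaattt
Thor (plus strand, chr2L:3478380-3478433): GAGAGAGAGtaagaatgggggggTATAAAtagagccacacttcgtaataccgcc

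CGATA, the core of the sites of the insulator protein BEAF-32, was within 50 bp of the summit in chico, Akt, Tor and raptor, 4 of the 6 members with an optimal peak. It was there in 37.7% of the 4118 optimal promoter peaks of all genes. The longer TATCGATA, the element bound by DREF, was under the summit of raptor only among the 6, at -79 to -72 bp, and under 9.91% of all promoter peaks. The ETS words were under none of the 6 summits. Over all promoter peaks CCGGAAG was under 0.801%, the shorter CCGGAA under 3.62% and the shorter CGGAAG under 2.72%. GGTCACAC (7.72% of all promoter peaks), CACGTG, the E-box that Myc and Max bind (1.38%), and TTGTTTAC, a site that foxo binds (1.38%), were also under none of the 6. GAGAGAG was under the Akt summit and 1.24% of all promoter peaks. TATAAA was under the summit of foxo's pooled region and 12.9% of all promoter peaks, and in Thor it lay at -31 to -26 bp, outside the 50 bp window around the summit. A match is a description of letters, and the absence of one says nothing of the factor.

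InR (FBgn0283499, 3R:21570248-21619321, minus strand), the receptor that starts the pathway, has 4 annotated TSSs. The bound one was the first, of transcript InR-RB at 21619321. The optimal set held 2 summits there, at -59 bp with a pooled signal of 135 and at -264 bp with 93.7, both intergenic. The stronger summit lay at -344 bp of the second TSS, of InR-RA, which starts 285 bp further down. The TSSs of InR-RC and InR-RD, 27200 and 29130 bp from the first, had no optimal summit within 500 bp. At InR the relative signal was 0.773, 0.558 and 1.52 in replicates 1, 2 and 3, a mean of 0.950 ± 0.504 (SD, n = 3). Replicate 3 was highest, and in replicate 2 the strongest region lay at -227 bp and ranked 5734, outside the strongest set. When a replicate was left out and a peak had to lie within 150 bp of a region in both other strongest sets, InR was lost without replicate 1 and without replicate 3, and the other 5 genes were kept.

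Chico, the fly insulin receptor substrate, had the highest signal of the 10 genes. Its single TSS at 2L:10247078 (FBgn0024248, minus strand) carried an intergenic summit at -43 bp in a peak at 2L:10246896-10247345. The pooled signal was 294, rank 978 of the pooled list and above 79.9% of all optimal promoter peaks. Chico had a relative signal of 1.77, 1.74 and 1.67 in replicates 1, 2 and 3, a mean of 1.73 ± 0.0548 (SD, n = 3). The 3 values lay close together, and the summits at -42, 7 and -16 bp spanned 49 bp.

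Akt (FBgn0010379, 3R, plus strand), the kinase downstream of phosphoinositide 3-kinase, has 2 annotated TSSs 1532 bp apart. The first, at 16099228, was bound at -88 bp with a pooled signal of 130, rank 3718. The second, of transcript Akt-RD, had no region of any list within 500 bp. The replicates gave Akt relative signals of 0.783, 1.16 and 0.681 (replicates 1, 2 and 3; mean 0.876 ± 0.255, SD, n = 3), with replicate 2 highest. The TSS of Mhcl, a myosin heavy chain-like gene on the other strand, lay 467 bp from that of Akt. The Akt summit was at -379 bp of it, and replicates 1 and 2 each held a further, weaker region nearer to Mhcl.

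Tor (mTor in the annotation, FBgn0021796, 2L, plus strand), the kinase of the TOR complexes, carried the second highest signal, but its summit was nearer to another gene. The pooled summit lay at -290 bp of the Tor TSS at 13004480 and at -83 bp of Vha68-1, a gene for the catalytic A subunit of the vacuolar ATPase, which starts 373 bp away on the other strand. The pooled signal was 238, rank 1469, in a narrow peak of 164 bp at 2L:13004131-13004294. Relative signals at Tor were 1.72, 1.80 and 1.25 in replicates 1, 2 and 3 (mean 1.59 ± 0.297, SD, n = 3). Replicate 3 was lowest, and the 3 summits lay at -292, -291 and -296 bp, a span of 5 bp. Replicate 2 alone listed a further region at -87 bp of the Tor TSS, with a signal of 24.7 against 95.7 at the main summit. Had each summit been given to its nearest TSS only, Tor would have had no peak.

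Raptor (FBgn0029840, X, minus strand), the subunit that brings substrates to TOR, was bound at its single TSS at 6090201. The summit lay at -52 bp, in an intron of Mipp2, a gene that overlaps raptor, with a pooled signal of 132 and rank 3627. The start of an antisense RNA, asRNA:CR44959, also lay within 500 bp. Relative signals at raptor were 0.561, 0.943 and 0.951 in replicates 1, 2 and 3 (mean 0.818 ± 0.223, SD, n = 3). Replicate 1 was lowest, at rank 5548, just inside its strongest set.

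S6k (FBgn0283472, 3L, minus strand), the kinase that phosphorylates ribosomal protein S6, shared its summit with a divergent gene. The pooled summit was at -40 bp of the S6k TSS at 5810931 and at -2 bp of kri, whose TSS is 42 bp away. The pooled signal was 179, rank 2407, near the median of 173 over all optimal promoter peaks. For S6k the relative signal was 0.898, 0.979 and 1.20 in replicates 1, 2 and 3 (mean 1.03 ± 0.157, SD, n = 3). All 3 were within the strongest sets, and the summits spanned 23 bp. By nearest TSS, the S6k summit would also have gone to the other gene.

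**Figure D1:**
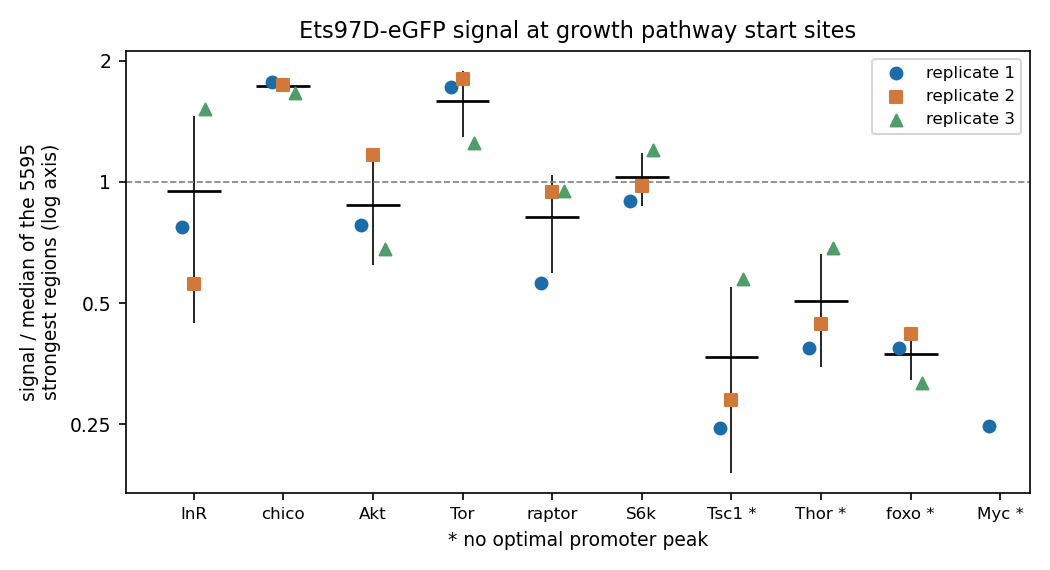
Signal at the strongest region within 500 bp of a TSS of each gene, relative to the median of the 5595 strongest regions of the same replicate (log axis). Points are replicates, horizontal bars the mean, vertical lines 1 SD (n = 3), and asterisks mark genes with no optimal promoter peak; chico and Tor lie above the dashed line at the median in all 3 replicates, and Myc has a region in replicate 1 only.

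The 4 genes without an optimal peak were at different distances from the threshold. Thor (FBgn0261560, 2L, plus strand), the inhibitor of the cap-binding protein eIF4E, came closest. Its pooled region had a signal of 84.2 and rank 5921, where the optimal set ended at 89.1 and rank 5595. The summit lay in the 5′ UTR, 26 bp downstream of the first TSS at 3478434 and at -62 bp of the second, 88 bp further down, so the 2 TSSs cannot be told apart. For Thor the relative signal was 0.387, 0.445 and 0.684 in replicates 1, 2 and 3 (mean 0.505 ± 0.157, SD, n = 3). Only replicate 3 placed it within its strongest set, at rank 4569.

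Foxo (FBgn0038197, 3R, plus strand), the transcription factor held back by Akt, had a pooled region at -294 bp of its first TSS at 14056945 with a signal of 60.3, rank 8075. At foxo the relative signal was 0.386, 0.420 and 0.317 in replicates 1, 2 and 3 (mean 0.374 ± 0.0526, SD, n = 3), and all 3 replicates placed it outside their strongest sets. The second TSS, 974 bp downstream, had a region in replicate 1 only, with a signal of 16.3.

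Tsc1 (FBgn0026317, 3R, plus strand), a subunit of the complex that restrains TOR, had a pooled region 72 bp downstream of its TSS at 24130307, in the 5′ UTR, with a signal of 61.2, rank 7958. The relative signal was 0.244, 0.287 and 0.573 in replicates 1, 2 and 3 (mean 0.368 ± 0.179, SD, n = 3). Replicate 3 was highest, at rank 5601, just outside its strongest set, and the 3 summits were scattered over 291 bp. The TSS of GatB, a gene for a subunit of the mitochondrial glutamyl-tRNA amidotransferase, was 52 bp away on the other strand.

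Myc (FBgn0262656, X, plus strand) had the least signal at its TSS at 3373159. Replicate 1 listed a region at 30 bp, rank 15949 of 24391 and 0.248 times the median of its strongest set. Replicates 2 and 3 and the pooled list had no region within 500 bp. The weakest regions of these 3 lists had signals of 8.75, 9.35 and 22.3, and a region missing from a list can lie anywhere below what the authors kept.

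Ordered by the mean relative signal, the 9 genes with a value in every replicate were chico, Tor, S6k, InR, Akt, raptor, Thor, foxo and Tsc1. Of the 8 neighbouring pairs in this order, 1 pair, Tor above S6k, had replicate values that did not overlap (lowest 1.25 for Tor, highest 1.20 for S6k). The values of the other 7 neighbouring pairs overlapped. Within replicates, raptor was above Thor and Thor above foxo in 3 of 3, as was Tor above S6k, while the other 5 pairs changed order between replicates. Of all 36 pairs of the 9 genes, 20 had values that did not overlap. With 3 replicates an exact permutation test of 2 genes cannot give a p below 0.1, or below 0.25 with the replicates paired, so no test was run. The 6 optimal peaks had a median pooled signal of 157, with values from 130 to 294, against a median of 173 over the 4118 optimal promoter peaks. Of all promoter peaks, 31.7%, 30.1% and 28.7% were weaker than those of InR, raptor and Akt.

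**Figure D2:**
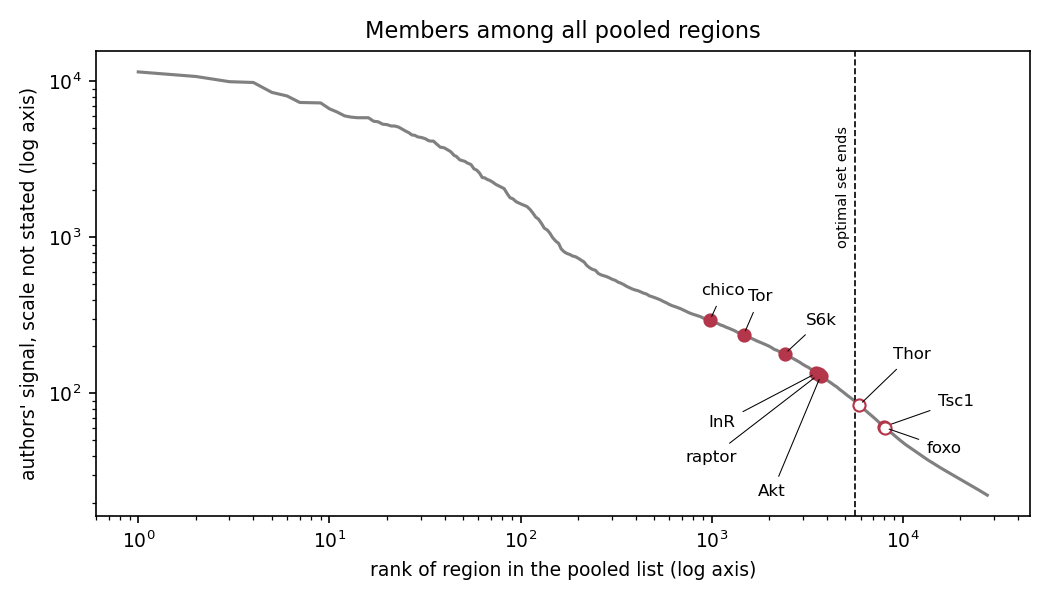
Pooled signal of all 27625 regions against rank (grey line, both axes log), with the strongest region at each gene's TSSs marked. Filled points are in the optimal set, which ends at the dashed line at rank 5595; chico is highest at rank 978, Thor lies just outside at 5921, and Tsc1 and foxo follow at 7958 and 8075.

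The 6 summits lay upstream of their own TSS, at a median of -55.5 bp. Over all optimal promoter peaks the median was -52 bp and 82.4% were upstream, measured from the nearest TSS of any protein-coding gene. For Tor and S6k that nearest TSS belonged to the other gene. A TSS of another protein-coding gene was within 500 bp of 3 of the 6 (Akt, Tor and S6k), against 40.8% of all promoter peaks. In that share a peak counts once, however many genes share it, so it is not a share of genes. The 3 replicates' summits spanned 36.5 bp at the median of the 6 genes, against 42 bp over all promoter peaks with a region of each replicate within 150 bp. A full-list region of every replicate lay within 150 bp of the strongest summit in 5 of the 6, against 96.2% of all promoter peaks. The exception was InR, whose replicate 2 region was nearer the second, weaker summit. The highest relative signal was 1.57 times the lowest at the median of the 6 genes. Over the promoter peaks with a region of each replicate within 150 bp it was 1.40 times. The members' spans and signals came from the strongest region within 500 bp of a TSS, an unlike measure. They include InR, with 2.72 times and a span of 187 bp, which would not be among those peaks. Replicate 3 gave the highest value of the 6 genes in 3 (InR, raptor and S6k), against 29.4% of those promoter peaks highest there. It gave the lowest in the other 3, and the share of all promoter peaks lowest there is not given here.

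**Figure D3:**
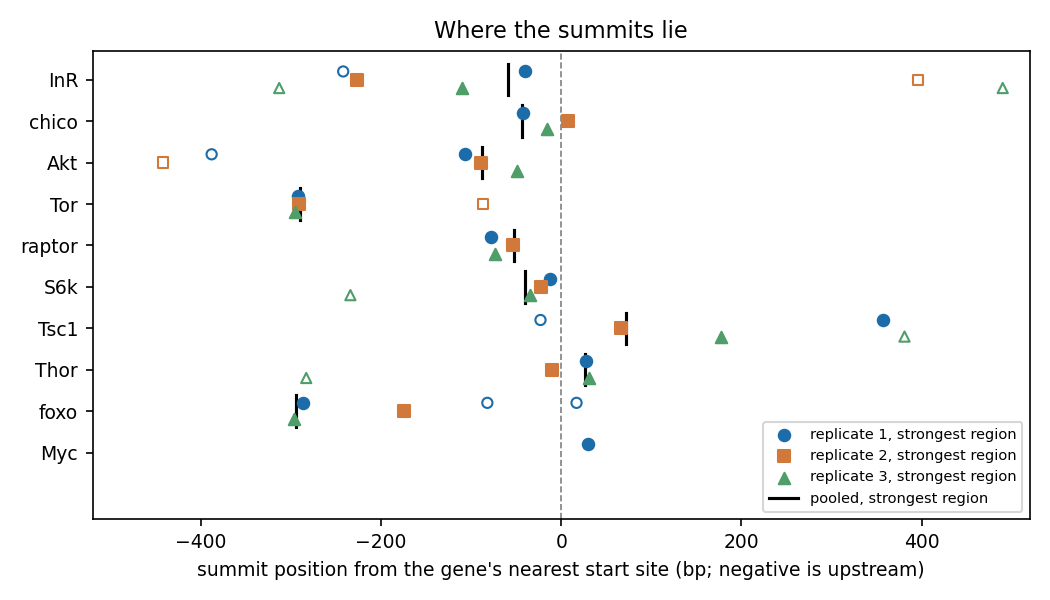
Position of summits relative to the nearest TSS of the same gene in bp, negative being upstream. Filled symbols are the strongest region of each replicate, open symbols further regions of that replicate, and black bars the strongest pooled region; the summits of Tor coincide within 5 bp, while those of Tsc1 spread over 291 bp.

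InR and Akt, the 2 genes with an optimal peak and TSSs over 1000 bp apart, had it at the first TSS. By the 500 bp window, the TSSs over 1000 bp further down had none. Over all genes this was common: of 877 genes with TSSs over 1000 bp apart and an optimal promoter peak, 91.4% had at least 1 TSS without one, and 77.5% were bound at the first.

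Optimal peaks inside the gene, outside the 500 bp zones, were found in InR, Akt and Myc, which are 49074, 6443 and 18539 bp long. The share of all protein-coding genes with such a peak is not given here, so this describes these genes only. InR had 4 such peaks, and the strongest 2 had higher pooled signals than any InR peak within 500 bp of a TSS. A narrow peak at 3R:21590756-21590921, in an intron, had a pooled signal of 280, 28.5 kb into the gene and at -646 bp of the TSS of InR-RD. A window of 1000 bp would give it to that TSS. That peak had relative signals of 1.12, 1.77 and 2.12 in replicates 1, 2 and 3 (mean 1.67 ± 0.508, SD, n = 3). A peak at 3R:21580068-21580517, in coding sequence 39.0 kb from the first TSS, had a pooled signal of 276 and a relative signal of 1.98, 1.28 and 1.66 (mean 1.64 ± 0.349, SD, n = 3). At the first InR TSS the mean was 0.950, and the values of the intragenic peaks and of the peak at the first TSS overlapped. The other 2, with pooled signals of 184 and 94.1, lay 5.78 and 4.29 kb into the gene, the weaker one in an exon of the non-coding gene lncRNA:CR44034. The peak of 184 had relative signals of 0.900, 0.559 and 1.66 in replicates 1, 2 and 3, and replicate 2 ranked it 5716, outside its strongest set. The peak of 94.1 had 0.584, 0.711 and 0.609. InR is the longest of the 10 genes, at 49074 bp, and none of its 4 intragenic summits held any of the 10 words within 50 bp.

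**Figure D4:**
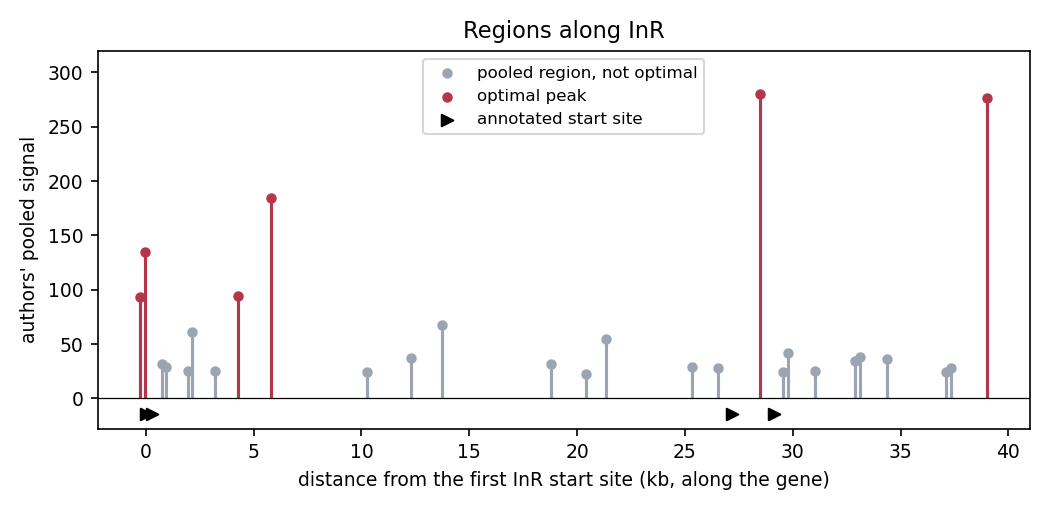
Pooled regions along InR, by distance from its first TSS in kb, with the authors' pooled signal as height. Red stems are optimal peaks, grey stems other pooled regions and black triangles annotated TSSs. The peak of 135 at the first TSS is lower than the peaks at 28.5 and 39.0 kb, with 280 and 276.

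Akt had an intronic peak 709 bp downstream of its first TSS, with a pooled signal of 119 and a relative signal of 0.750, 0.727 and 0.636 in replicates 1, 2 and 3 (mean 0.704 ± 0.0601, SD, n = 3). Myc, which had no optimal peak at its TSS, had 1 in its intron, 8723 bp downstream at X:3381657-3382106. Its pooled signal was 121, and its relative signal was 0.730, 0.611 and 0.773 in replicates 1, 2 and 3 (mean 0.705 ± 0.0840, SD, n = 3). All 3 replicates placed this region within their strongest sets, and its window held CGATA, as did 14.4% of the 1477 optimal peaks away from promoters. Foxo, 31034 bp long, had 11 pooled regions inside the gene away from its TSSs, the strongest at 73.2, and none in the optimal set.

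The other genes of the pathway were taken from a list of 77 names sorted by role, of which 75 matched the annotation. Of these, 50 had an optimal promoter peak (66.7%), against 36.5% of all protein-coding genes, with a median pooled signal of 191 over the 50. Of those 50, 43 had a region in the strongest sets of all 3 replicates, and the same share over all genes is not given here. The summit was also within 500 bp of a TSS of another protein-coding gene in 26 of the 50. Over all optimal promoter peaks, counted as peaks and not genes, the share was 40.8%. Of the genes named next, 14-3-3zeta, 14-3-3epsilon, Rheb, TBC1D7, Sesn, Lamtor3, Lamtor4, Lkb1, ago, rept and ewg were among the 26. When each summit went to its nearest TSS only, 44 pathway genes had a peak. Among all protein-coding genes the count then went from 5097 to 3846. The names were listed with earlier results of these data known, so their shares are descriptions and were not tested against other genes.

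None of the 10 genes for ligands and their binding proteins had an optimal peak. The insulin-like peptide genes Ilp1 and Ilp2 had no pooled region within 500 bp of a TSS. Among the other 65 genes, a split made after the values were seen, 50 had a peak (76.9%).

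Between receptor and Akt, 5 of 8 genes for adaptors and lipid signalling had a peak. Lnk, an SH2B-type adaptor, had a pooled signal of 392, Pi3K21B, the regulatory subunit of phosphoinositide 3-kinase, 355, and melt, a membrane adaptor of Tsc1 and foxo, 342. Their relative signals averaged 2.41 ± 0.272, 2.12 ± 0.271 and 2.14 ± 0.210 (SD, n = 3), all above that of chico. Pdk1, the kinase that activates Akt, and Pi3K59F, the fly Vps34, had pooled regions of 52.7 and 31.6 below the threshold. Of the partners of Akt and the subunits of TOR complex 2, 5 of 6 had a peak, led by the phosphoprotein-binding 14-3-3zeta with 407, 14-3-3epsilon with 281 and sgg, the fly GSK3, with 275. Rictor, which defines TOR complex 2, had none, with 74.0 in the pooled list.

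Tsc1 lacked the optimal peak that gig, its partner, had. In the role of the Tsc complex and Rheb 4 of 5 genes had a peak: Rheb, the GTPase that activates TOR, with 251, TBC1D7 with 156, and gig, the fly Tsc2, with 129, while chrb, a REDD1 homologue, had 85.4 and no optimal peak. The relative signal of Tsc1 was 0.368 ± 0.179 and that of gig 0.742 ± 0.143 (SD, n = 3), and Tsc1 was lower in every replicate, where gig had 0.907, 0.659 and 0.659. Of the 19 genes for amino acid sensing by the Rag pathway 14 had a peak, led by Sesn, the fly sestrin, with 442, and the Ragulator subunits Lamtor3 with 243 and Lamtor4 with 235. Lamtor1 had 84.2 and Nprl2, a subunit of the GATOR1 complex, 37.3, both below the threshold. In energy sensing, 3 of 4 had a peak: alc, the beta subunit of AMPK, with 524, SNF4Agamma, the gamma subunit, with 298, and Lkb1, which activates AMPK, with 140. AMPKalpha, the catalytic subunit, had 87.4, just short of the optimal set.

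Among the effectors of TOR, partners of Thor and S6k had the highest pooled signals of the 75 genes. The cap-binding protein gene eIF4E1, whose product Thor inhibits, had a pooled signal of 658 and a relative signal of 4.01 ± 0.138 (SD, n = 3). RpS6, the ribosomal protein that S6k phosphorylates, had 648 and 3.74 ± 0.629. REPTOR, a transcription factor active when TOR is inhibited, had 344 and 2.02 ± 0.107. Of the 9 effectors 6 had a peak, and the autophagy kinase gene Atg1 (43.0 in the pooled list) and Mitf, with no pooled region, had none.

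Around Myc, 7 of 8 partners and regulators had a peak, led by Ubr3 with a pooled signal of 432, ago, the F-box protein that marks Myc for breakdown, with 227, and rept, a helicase that works with Myc, with 192. The ago summit lay at -441 bp, towards the edge of the 500 bp window. Max, the partner with which Myc binds DNA, had 80.3 and no optimal peak. All 6 growth regulators linked to Ets97D and cyclin D had one. The summit at CycD lay at -484 bp, near the edge of the 500 bp window, and only 2 replicates had a region there. Cdk4 was just inside the optimal set with 90.6 and was in the strongest set of no replicate. Ets97D itself had 303 at -38 bp, with a relative signal of 1.79, 2.00 and 1.87 in replicates 1, 2 and 3 (mean 1.89 ± 0.106, SD, n = 3). The line is transgenic for this gene and its copies of the locus are unknown, so this value may not compare with other genes. Ewg, the fly NRF-1, had 267, and srl, the fly PGC-1, 221.

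**Figure D5:**
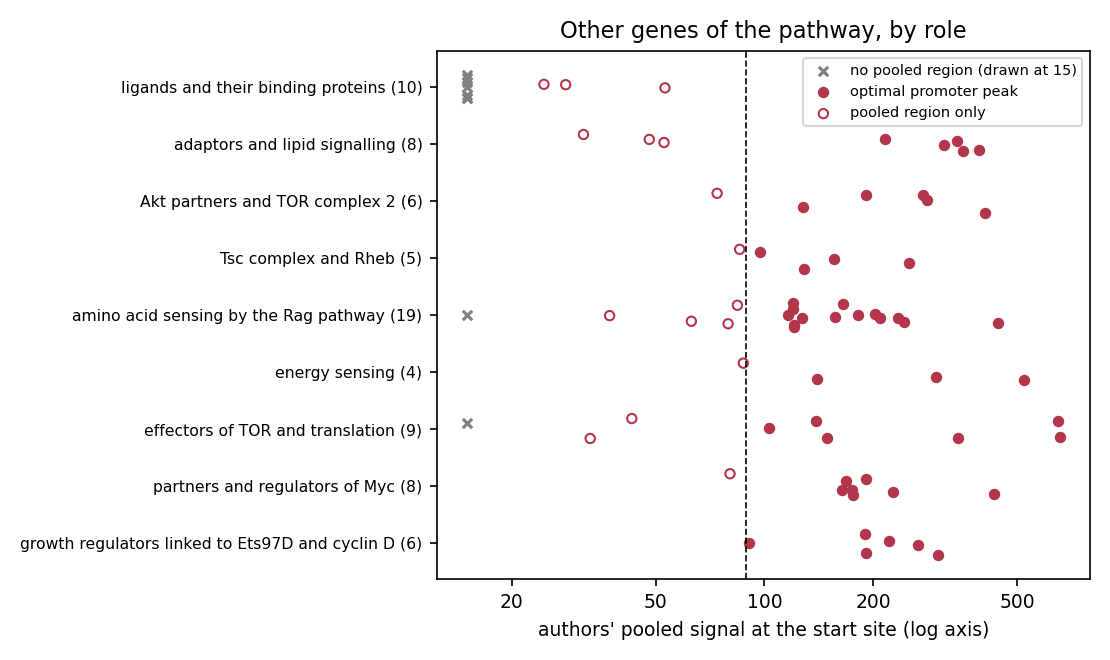
Pooled signal (log axis) at the TSSs of 75 other pathway genes by role, with the number of genes in each role in brackets. Filled points are genes with an optimal promoter peak, open points genes with a weaker pooled region and crosses genes with none; the dashed line is the lowest signal of the optimal set, 89.1, and no ligand gene reaches it.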

How the data were processed

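ChIP-seq region lists of 3 replicates were used as deposited. Per the labels and the text deposited with each sample, the lists are of the narrowPeak type on dm6; replicate and pooled lists hold peaks and background from ChIP alignments and a control, and the optimal IDR set was derived from them. The signal (column 7) and the −log10 q value (column 9) are the authors' deposited values; the q value was not used for any statement. Of aligner, peak caller, versions and IDR threshold, nothing is given in the sources used here. Lists on dm3 were not used here. No read counts were used, so depth is unknown and no counting error can be given.

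Summits are start plus offset, written 1-based. TSSs came from Ensembl release 115, sequence from NCBI Release 6; region ends lay within its chromosome lengths. Tor was read as mTor. Assignment was tested on simulated summits. Shares are descriptions, with no test. Replicates are biological per the labels, and 2 of 77 listed pathway names were unmatched. The genes, lists and words were chosen with earlier results of these data known. Named genes were the 10 members, genes sharing their summits and, per role, up to 3 with the highest optimal signal and up to 2, alphabetically, without a peak. Python 3.11.15, NumPy 2.4.6, pandas 2.3.3 and matplotlib 3.10.9 were used.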

Additional observations from a re-analysis of the deposited data

How the results depend on the processing

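The count of members with an optimal promoter peak was 6, and it was 3 (chico, Tor and S6k) with the 50% of optimal peaks of highest signal. Under the other alternatives it lay between 4, when each summit went to its nearest TSS only, and 9, with all pooled regions. It was 5 or 6 without 1 replicate. That setting only filtered the optimal peaks, which the authors derived from all 3 replicates, so the count could not rise above 6. The count for the other pathway genes was 50, and between 34 and 66 under all alternatives. For all protein-coding genes it was 5097, with 3092 for the stronger 50% of peaks and 8240 with all pooled regions. The median relative signal over the 9 members with 3 values was 0.876, between 0.752 and 0.947 without 1 replicate, and 3.24 when the median of all regions of a replicate was the unit, a change of unit by construction. A requirement that every full replicate list hold a region within 150 bp, added after seeing the data, left 6 members. With the replicate region nearest the pooled summit, InR had no value in replicate 2. No paired analysis was possible because there is 1 group of samples, so no 2 groups share replicate numbers; genes were only set side by side within replicates. Without read counts, a region missing from a list cannot be told from one below the authors' limit.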

Other observations

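Some further pathway genes were picked out after their values were seen. Close to the end of the optimal set at a pooled signal of 89.1, Cdk4, the partner kinase of cyclin D, was just inside with 90.6, and none of the 3 replicates had it in its strongest set (relative signals of 0.456, 0.568 and 0.436). Scyl, a REDD1 homologue like chrb, was inside with 97.0, with relative signals of 0.427, 0.546 and 0.870 in replicates 1, 2 and 3, and Tif-IA, an initiation factor of RNA polymerase I, with 103 and 0.776, 0.588 and 0.524. Wdr59, a subunit of the GATOR2 complex, was just outside with 79.3. RagA-B, a Rag GTPase, was further inside with 121, with relative signals of 0.194, 0.344 and 0.958, and only replicate 3 placed it in its strongest set. Its summit lay at -438 bp, near the edge of the 500 bp window, and was also within 500 bp of a TSS of CG11970.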
